A study of Mus musculus with 43 samples.

Results

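CTLL-2 is a cytotoxic T cell line of the C57BL/6 mouse that needs interleukin-2 (IL-2) to grow and survive. The arrays described here are the 4 labelled no IL-2 4 h, out of 43 Mouse Genome 430 2.0 arrays, and they were chosen by their sample titles. The cells had been washed, kept in medium without IL-2 for 14 h and then starved for 4 more hours, so they had been 18 h without the cytokine in all. They were set beside 3 arrays kept for 8 more hours without IL-2, 4 arrays given 100 U/mL human rIL-2 for 4 h after the same starvation, and 5 starved arrays taken at the end of the 14 h (0 h). All of these cells are of 1 line, and every group carries the same 14 h of starvation. The series' design text names biological replicates for the IL-2 times. The labels do not say how the replicates without IL-2 were made, so p-values measure the spread between arrays. For limma's main fit this is the spread within groups over all 43 arrays, not over the compared arrays alone.

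IL-2 binds a receptor made of alpha, beta and common gamma chains, and the kinases JAK1 and JAK3 then activate the transcription factor STAT5. The same receptor drives phosphoinositide 3-kinase and AKT, which hold FoxO transcription factors out of the nucleus, and raises MYC, which promotes ribosome building and growth. T cells without the cytokine take up less glucose, stop dividing and in time die through the BCL-2 family. Hypoxia-inducible factor (HIF) controls a set of genes for glucose use and oxygen sensing, and in T cells it is also raised by cytokine signals.

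Replicate 2 of the no IL-2 4 h label did not resemble the other 3 arrays of its group. On a scale where the starved mean is 0 and the IL-2 4 h mean is 1, taken over the 4855 probe sets that differed between those groups, replicate 2 lay at 0.914. Replicates 1, 3 and 4 lay at 0.143, 0.0631 and 0.164, the 4 IL-2 4 h arrays between 0.919 and 1.04, and the 5 starved arrays between -0.118 and 0.0784. Arrays given IL-2 for 8 h lay at 0.961, 0.871 and 0.953, so the scale does not single out 4 h with IL-2. The mean correlation of replicate 2 over all tested probe sets was 0.94 with the IL-2 4 h arrays, 0.935 with its own group, 0.929 with the no IL-2 8 h arrays and 0.907 with the starved arrays. Of 8335 genes with a mean signal of at least 200, replicate 2 lay more than 1 log2 unit above all 3 others for 459 genes and below them for 555, against totals of 12, 30 and 8 genes for replicates 1, 3 and 4. It did not resemble the IL-2 4 h arrays throughout. Its signals lay above all 4 IL-2 4 h arrays for Lta (14310 against 6284 to 8559) and Dkc1 (7057 against 2637 to 3703). The same held for Slc16a6 (6175 against 698 to 2097). They lay below all 4 for Socs3 (5812 against 8558 to 14255) and Hbegf (4926 against 5136 to 10263). Csn2 (beta-casein) had a signal of 1945 in replicate 2, inside the range of 1659 to 2089 of the other 3, against a mean of 16741 in the IL-2 4 h arrays. For Csn2 all 7 arrays without IL-2 lay below all 36 arrays of the other scan year. Scan year and treatment therefore cannot be told apart for this gene. Values without this array are therefore given beside those with all 4.

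**Figure D1:**
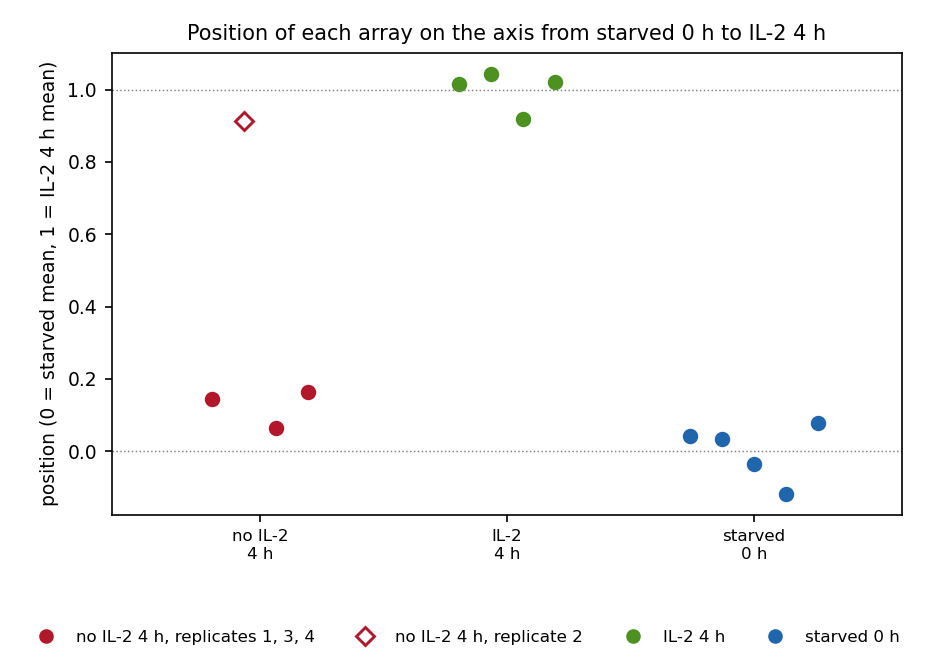
Position of each array (vertical axis, no unit) between the starved 0 h mean at 0 and the IL-2 4 h mean at 1, over 4855 probe sets; each symbol is 1 array of the no IL-2 4 h, IL-2 4 h or starved 0 h group. Replicate 2 of no IL-2 4 h (open diamond, 0.914) lies beside the IL-2 4 h arrays, and the other 3 lie between 0.0631 and 0.164.

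All 7 arrays labelled no IL-2 were scanned in one scan year and the other 36 arrays in another, so scan year and the additional hours without IL-2 cannot be told apart. No scan day held both no IL-2 4 h and starved arrays. Scan day as a random block, used below, therefore cannot separate day from treatment. Array medians were lower in the no IL-2 4 h arrays, at 57.1 ± 1.9 signal units, against 79.2 ± 18.9 in the starved arrays (SD, n = 4 and 5; exact permutation test, two-sided p = 0.0159). Ratios of 3' to 5' signal, a measure of RNA integrity, averaged 1.25 ± 0.07 against 1.2 ± 0.11 for actin (exact permutation test, p = 0.437) and 0.92 ± 0.04 against 0.865 ± 0.049 for GAPDH (exact permutation test, p = 0.127). On a log2(signal + 16) scale the median difference over all 32184 tested probe sets was -0.18, and it was 0.12 when each array was centred on its median and 0.01 after quantile normalisation. A log2 difference below is no IL-2 4 h minus starved 0 h on the deposited scaling unless another is named, followed by limma's standard error and the adjusted p over all tested probe sets. Every gene said below to have risen or fallen kept its direction under both other scalings.

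Between no IL-2 4 h and starved 0 h, limma called 2579 of 32184 probe sets (8.01%) at an adjusted p under 0.05. Of these, 832 were higher (2.59%) and 1747 lower (5.43%). Without replicate 2 the test called 1325 (4.12%), with 385 higher (1.2%) and 940 lower (2.92%), and 1181 probe sets were called both ways in the same direction. All 4 arrays lay above all 5 starved arrays for 1028 probe sets (3.19%) and below them for 2430 (7.55%). Leaving out no IL-2 4 h replicate 4 gave 1603 calls and leaving out starved replicate 3 gave 1687. The share of calls that were higher was 32.3% as deposited, 76.7% after median centring and 46% after quantile normalisation, so the balance of rises and falls depended on the scaling. The lower calls were dimmer, with a median of mean signals of 262 against 1972 for the higher calls, and 613 of the 1747 had a mean under 200 in the starved group. With 1 probe set per gene, 471 of 14534 genes were called higher (3.24%) and 624 lower (4.29%). Without replicate 2 these were 221 (1.52%) and 326 (2.24%). At an unadjusted p under 0.05, 1358 genes were higher (9.34%) and 1852 lower (12.7%), and without replicate 2 these were 1069 (7.36%) and 1488 (10.2%). The called and the unadjusted counts given for gene lists below are to be read against these shares of all genes.

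Slc2a1 and other genes of the HIF programme were among those that fell. Of 17 measured genes on a list of hypoxia and HIF targets, 6 fell, and at an unadjusted p under 0.05 limma put 9 lower, with none higher on either count, where 12.7% of all genes were lower at that unadjusted p. The list's median log2 difference was -0.98, against -0.10 over all genes, and it was -0.85 without replicate 2, with 5 called lower. After median centring the median was -0.69 and 3 genes, Slc2a1, Bnip3 and P4ha1, were called.

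Slc2a1, the glucose transporter GLUT1, had signals of 889, 2470, 706 and 937 in the no IL-2 4 h arrays, against 9545, 9343, 11922, 12315 and 13960 in the starved arrays. The groups did not overlap, and the highest no IL-2 value was that of replicate 2. Slc2a1 fell by 3.34 ± 0.43 on the log2 scale (adjusted p = 3.92e-06), with a log2 difference of -3.73 ± 0.44 without replicate 2 (adjusted p = 2.09e-06). With scan day as a random block its adjusted p was 0.00038.

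P4ha1, a catalytic subunit of the enzyme that hydroxylates collagen prolines, had signals of 434, 786, 527 and 465, against 1629, 1669, 2253, 3512 and 3437 in the starved arrays. Every no IL-2 4 h array was below every starved array. The log2 difference of P4ha1 was -2.10 ± 0.50 (adjusted p = 0.00671), and -2.28 ± 0.54 without replicate 2 (adjusted p = 0.0126); with scan day as a random block the adjusted p was 0.072.

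Bnip3, a BCL-2 family protein of the mitochondrial membrane that promotes mitophagy, had signals of 2990, 6452, 3092 and 3471, against 13104, 11434, 12160, 20296 and 14498 in the starved arrays. The groups did not overlap, and replicate 2 was again the nearest to the starved arrays. Bnip3 fell by 1.88 ± 0.36 on the log2 scale (adjusted p = 0.00112), with a log2 difference of -2.13 ± 0.39 without replicate 2 (adjusted p = 0.000981). It stands on the FoxO list too.

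These 3 promoters are shown because the genes are the members of the list that were called under each of the scalings. They are the 250 bases before the annotated start (RefSeq, mouse build GRCm38.p6), 5′ to 3′ on the gene's strand, with matches to the HIF core letters ACGTG or GCGTG on either strand in capitals. Slc2a1 is on the plus strand at chr4:119108495-119108744, Bnip3 on the minus strand at chr7:138909507-138909756 and P4ha1 on the plus strand at chr10:59323046-59323295.
Slc2a1: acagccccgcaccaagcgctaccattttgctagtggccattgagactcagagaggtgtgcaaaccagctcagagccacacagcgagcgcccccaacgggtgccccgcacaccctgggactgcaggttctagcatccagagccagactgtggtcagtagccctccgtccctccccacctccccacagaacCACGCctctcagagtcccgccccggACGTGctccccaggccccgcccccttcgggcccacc
Bnip3: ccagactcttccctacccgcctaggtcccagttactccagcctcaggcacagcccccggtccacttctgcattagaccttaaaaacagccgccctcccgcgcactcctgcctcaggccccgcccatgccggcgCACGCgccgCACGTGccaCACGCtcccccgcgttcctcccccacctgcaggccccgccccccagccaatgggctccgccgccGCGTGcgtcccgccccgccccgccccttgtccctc
P4ha1: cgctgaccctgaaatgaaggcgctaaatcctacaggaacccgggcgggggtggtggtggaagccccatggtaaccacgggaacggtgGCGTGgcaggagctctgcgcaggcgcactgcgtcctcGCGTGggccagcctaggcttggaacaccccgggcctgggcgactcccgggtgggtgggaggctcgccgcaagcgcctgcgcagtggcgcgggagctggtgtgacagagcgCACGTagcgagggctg

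The HIF core had 2 matches in Slc2a1, 5 in Bnip3 and 3 in P4ha1; 2 of those in Bnip3 overlap within a CACGTG, the E-box. Over windows of 300 bases, which add the 50 after the start, 18 of 18 matched promoters of the hypoxia list held the core, against 12628 of 27025 genes (46.7%). It was also in 27 of 32 promoters of ribosome biogenesis genes (84.4%) and 18 of 22 of the FoxO list (81.8%). This motif was chosen after the falls had been seen, and a match is not evidence of binding.

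The other members of the hypoxia list varied more. Pdk1, which inhibits pyruvate dehydrogenase, had signals of 2527, 1170, 1951 and 1779, against 3020, 5618, 3842, 2379 and 3817 in the starved arrays. The groups overlapped, Pdk1 was called lower (adjusted p = 0.0303), and the call was lost without replicate 2 (adjusted p = 0.146), without replicate 4, and without starved replicate 2, 3 or 5. The following 4 genes were named after their values had been seen. For Mxi1, which counters MYC, the fall was 0.88 ± 0.21 (log2 difference -0.88, adjusted p = 0.0072; 0.192 after median centring), and replicate 2, at 4469, overlapped the starved arrays, whose lowest signal was 4247. Egln1, the prolyl hydroxylase that marks HIF for degradation, fell by 0.84 ± 0.24 (adjusted p = 0.0226; 0.0524 without replicate 2). Ankrd37, a known HIF target, had signals of 477, 1293, 543 and 791 against a mean of 6282 ± 1582 in the starved arrays (SD, n = 5), and its adjusted p was 0.0782. Hk2, the hexokinase that traps glucose in the cell, had signals of 968.5, 411 and 1024 in replicates 1, 3 and 4 and 6659 in replicate 2, against a mean of 2840 ± 416 in the starved arrays. For Hk2 the log2 difference was -1.12 ± 0.42 with all arrays (adjusted p = 0.0928) and -1.90 without replicate 2 (adjusted p = 0.000676).

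Values on the glycolysis list, which shares Slc2a1 and Pdk1 with the hypoxia list, moved less. Of 19 measured genes 4 fell (Slc2a1, Pfkl, Eno2 and Pdk1, the last 2 not called without replicate 2), 9 were lower at an unadjusted p under 0.05, and limma put none higher on either count; 3 were called lower without replicate 2 (Slc2a1, Hk2 and Pfkl). The list's median was -0.55, and -0.26 after median centring. In IL-2 4 h minus starved 0 h its median was -0.49, with 5 called lower and 2 higher. Between IL-2 4 h and no IL-2 4 h the median was -0.02. Pfkl, the liver-type phosphofructokinase, had signals of 958, 2117, 928 and 1187, against 2378, 1970, 3875, 5937 and 2723 in the starved arrays. Replicate 2 alone overlapped the starved range, and Pfkl fell by 1.34 ± 0.35 on the log2 scale (adjusted p = 0.0131; 0.00899 without replicate 2, 0.061 with scan day as a random block and 0.111 after median centring). Slc2a3, the glucose transporter GLUT3, differed by 0.14 ± 0.16 (adjusted p = 0.657), and Ldha, lactate dehydrogenase A, by -0.24 ± 0.21 (adjusted p = 0.528), a difference that was 0.05 after median centring.

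**Figure D2:**
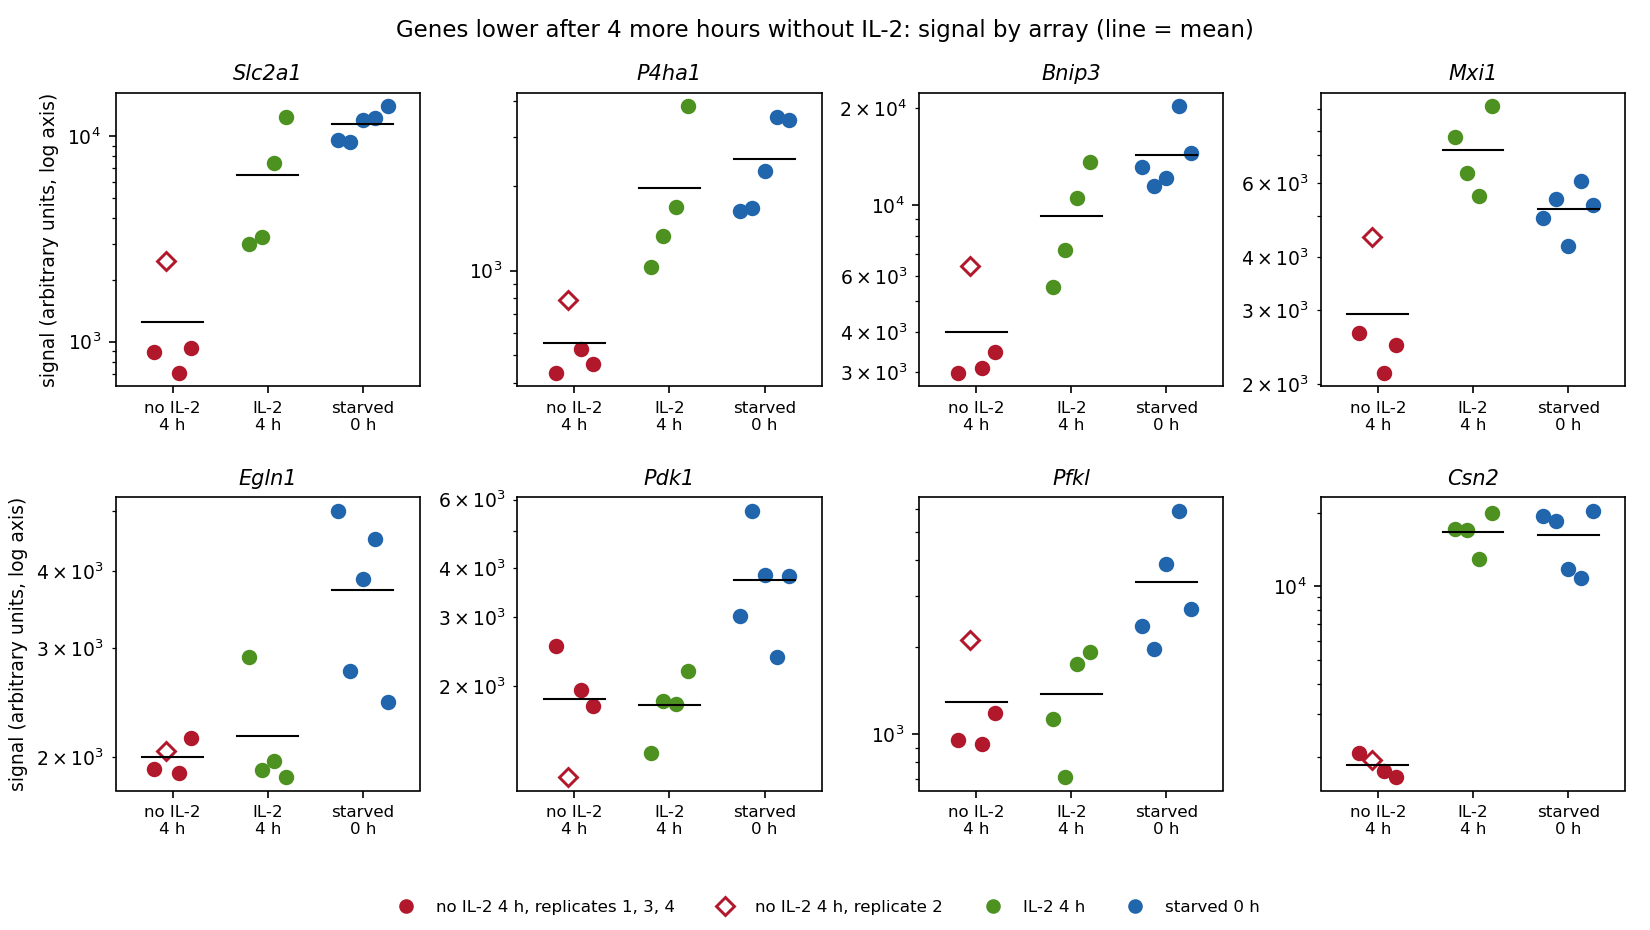
Signal of each array (vertical axes, arbitrary units, log scale) for 8 genes that were lower in no IL-2 4 h, in the no IL-2 4 h, IL-2 4 h and starved 0 h arrays; points are arrays, the open diamond is replicate 2 and lines are means. All 4 no IL-2 4 h arrays lie below all 5 starved arrays for Slc2a1, P4ha1, Bnip3, Egln1 and Csn2, and replicate 2 is the highest of its group for Slc2a1, P4ha1, Bnip3, Mxi1 and Pfkl.

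Apart from Slc2a1, the 12 largest falls were in genes of several kinds. They were taken from 209 genes called lower with and without replicate 2, with no overlap between groups and a starved mean of at least 200, and ran between -2.37 and -3.88 on the log2 scale. Csn2, a milk protein gene that STAT5 controls in the mammary gland, had signals of 2089, 1945, 1752 and 1659, against 19426, 18489, 11751, 10848 and 20352 in the starved arrays. It fell by 3.06 ± 0.25 (adjusted p = 1.93e-10; 4.43e-09 without replicate 2), and replicate 2 lay among its group. Pik3ap1, an adaptor that links receptors to phosphoinositide 3-kinase, had signals of 248, 147, 192 and 270, against 1060, 1238, 1417, 1481 and 1910, a fall of 2.65 ± 0.45 (adjusted p = 0.000248; 0.00244 without replicate 2). The IL-2 4 h arrays had 190, 184, 416 and 1270 for Pik3ap1, also lower than starved 0 h (-1.86, limma, adjusted p = 0.00343). Itgb3, the integrin beta-3 chain, fell by 2.73 ± 0.59 (adjusted p = 0.00307; 0.0257 without replicate 2), and with scan day as a random block its adjusted p was 0.051. Cysltr2, a leukotriene receptor, fell by 2.37 ± 0.59 (adjusted p = 0.0104; 0.047 without replicate 2 and 0.102 with that block).

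In 4 of those 12 genes (Spin4, Myl10, Csn2 and Cd93) all 7 arrays without IL-2 lay below all 36 arrays of the other scan year, which was so for 84 of 32184 probe sets (0.261%). Myl10, a myosin light chain, had signals of 108, 98.5, 103 and 72.8, against 1574, 1258, 2139, 3476 and 254 in the starved arrays and a mean of 1312 in the IL-2 4 h arrays. It fell by 3.58 ± 0.80 (adjusted p = 0.0041; 0.0148 without replicate 2). Spin4 fell by 3.88 ± 0.59 (adjusted p = 5.17e-05; 0.000482 without replicate 2), with no IL-2 4 h signals between 2.5 and 14, where the size of a fold is not exact. Pnmal1, S1pr5, Srgap3 and Raph1 complete the 12.

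Several enzymes and transporters of serine and amino acid metabolism were higher. Shmt2, the mitochondrial enzyme that passes the one-carbon unit of serine to folate, had signals of 9939, 5786, 8323 and 9372, against 3744, 3168, 3578, 4066 and 3898 in the starved arrays. All 4 lay above the starved arrays, with replicate 2 the lowest of its group, and Shmt2 rose by 1.15 ± 0.14 on the log2 scale (adjusted p = 2.87e-06), or by 1.32 ± 0.14 without replicate 2. Its mean in the IL-2 4 h arrays was 2773, below that of the no IL-2 4 h arrays at the same time.

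Phgdh, the first enzyme of serine synthesis, had signals of 12413, 11859, 10544 and 12776, against 6028, 5239, 5199, 5966 and 6558 in the starved arrays. The groups did not overlap, and Phgdh rose by 1.04 ± 0.12 (adjusted p = 4.33e-07; 3.15e-06 without replicate 2). Slc7a5, the light chain of a transporter of large neutral amino acids, had signals of 10242, 9152, 8795 and 11062, against 4705, 3174, 2228, 3004 and 4424. Replicate 2 lay inside its group for Slc7a5, whose rise was 1.53 ± 0.21 (adjusted p = 1.26e-05; 7.28e-05 without replicate 2). Slc3a2, the heavy chain of the same transporter, rose by 0.57 ± 0.18 (adjusted p = 0.0445), a call lost when any 1 of the 4 no IL-2 4 h arrays was left out.

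Phgdh, Slc7a5 and Slc3a2 were the 3 of 22 genes that rose on a list of the ATF4 and amino acid response, with a median of 0.22; limma put 5 higher and 1 lower at an unadjusted p under 0.05. Without replicate 2 the 3 called higher were Phgdh, Slc7a5 and Ddit3, a stress transcription factor. Of the 19 aminoacyl tRNA synthetases, which load amino acids onto tRNA, 2 rose, with a median of 0.28, and at an unadjusted p under 0.05 there were 7 higher and 1 lower. Wars, the tryptophan enzyme, had signals of 2625, 3269, 2687 and 3057, against 1567, 1448, 1473, 1932 and 1867, a rise of 0.81 ± 0.14 (adjusted p = 0.000233; 0.00195 without replicate 2). The groups did not overlap for Wars. Gars, the glycine enzyme, rose by 0.45 ± 0.13 (adjusted p = 0.0341; lost without replicate 1, 3 or 4 or starved replicate 2 or 3).

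The 12 largest rises came from 136 genes under the same rule and ran between 1.94 and 3.79 on the log2 scale. They include Lta, Myc, Socs1, Dkc1 and Srm, described below. Lack of overlap and a call without replicate 2 were conditions of this choice. Rnf207, a RING finger gene, had signals of 950.5, 372, 865 and 839.5, against 65.2, 57.5, 15.6, 26.7 and 35.1 in the starved arrays. It rose by 3.79 ± 0.43 (adjusted p = 4.33e-07; 5.2e-07 without replicate 2) and averaged 35.2 in the IL-2 4 h arrays. Ifitm3, an interferon-induced membrane protein that restricts viruses, had signals of 20407, 26519, 21304 and 24704, against 8773, 7708, 3926, 4299 and 6828, a rise of 1.94 ± 0.25 (adjusted p = 5.41e-06; 8.29e-05 without replicate 2). Replicate 2 lay apart from the IL-2 4 h arrays for both genes, since Ifitm3 averaged 8562 there.

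Rnf207, Clec2d, 2610528A11Rik and Ifitm3 had all 7 arrays without IL-2 above all 36 of the other scan year, as had 126 probe sets (0.391%) in all. Other genes on the interferon list did not move with Ifitm3: of 19 measured, 1 rose and 1, Stat2, a transcription factor of interferon signalling, was lower by 0.93 ± 0.25 (adjusted p = 0.017; 0.0772 without replicate 2). Slc16a6, a member of the monocarboxylate transporter family, had signals of 1498, 6175, 1521 and 1548, against 292, 604, 432, 254 and 687.5. All 4 lay above the starved arrays, replicate 2 far above the other 3, a rise of 2.31 ± 0.33 (adjusted p = 1.87e-05; 1.81 ± 0.29 without replicate 2). Phldb2 rose by 2.20 ± 0.46 (adjusted p = 0.00262; 0.00237 without replicate 2). Enah, a regulator of actin filaments, had signals of 95.9, 945, 18.1 and 115, against 2.8 to 15.6 in the starved arrays. Its rise of 2.71 ± 0.56 (adjusted p = 0.00232) was 1.81 ± 0.50 without replicate 2 (adjusted p = 0.0311), and with scan day as a random block the adjusted p was 0.0699.

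**Figure D3:**
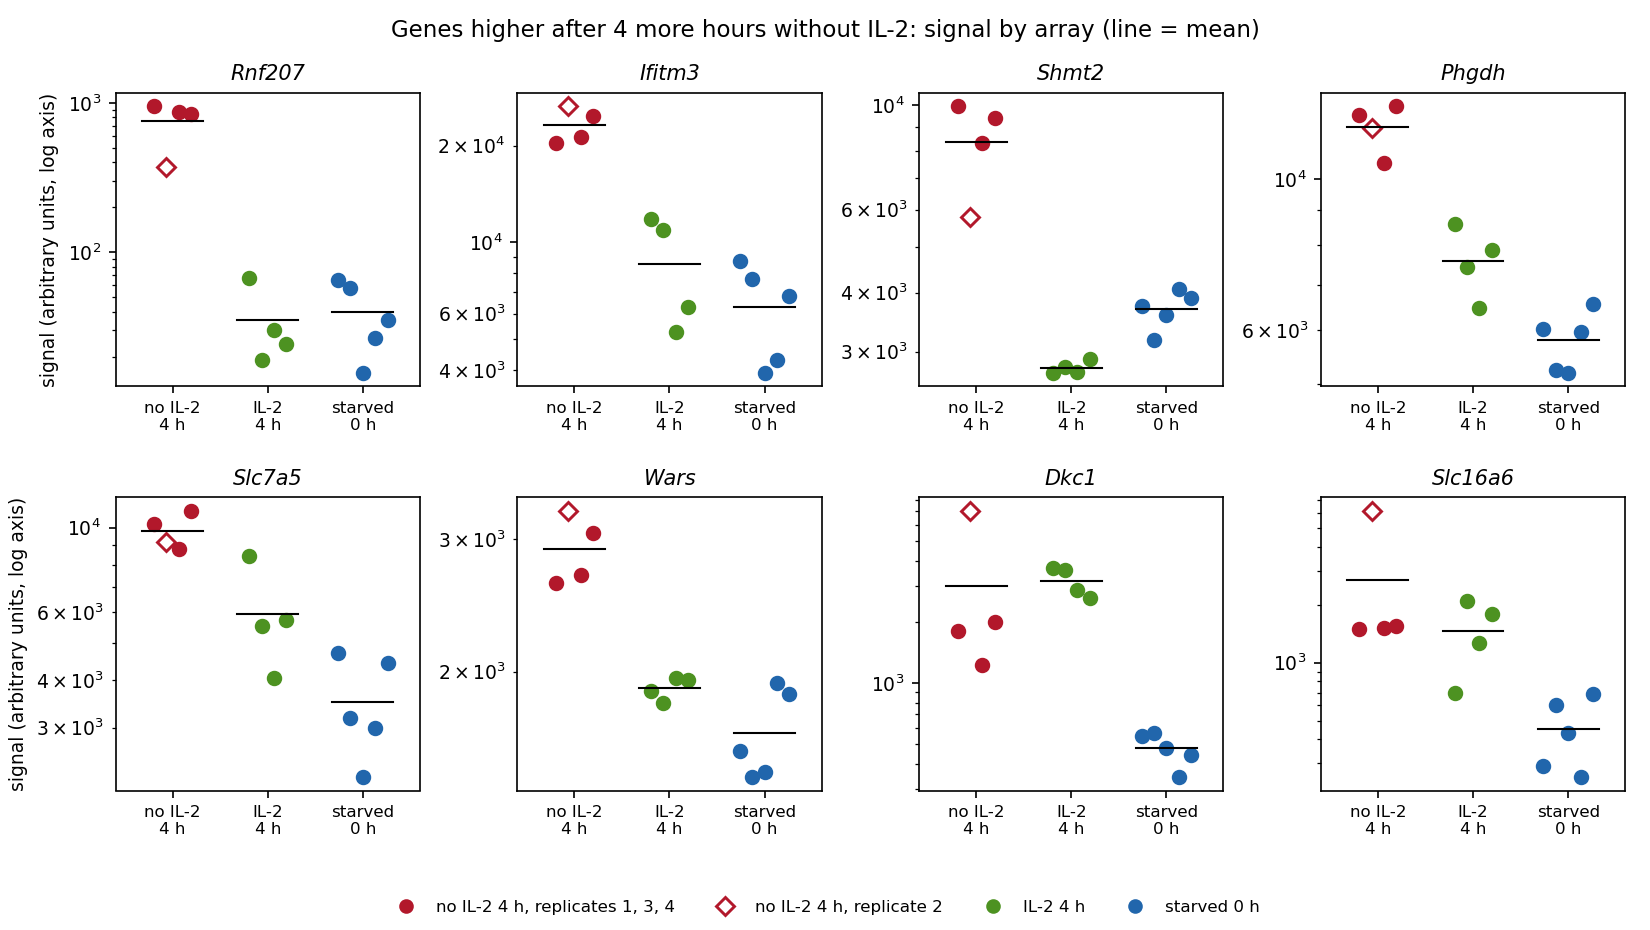
Signal of each array (vertical axes, arbitrary units, log scale) for 8 genes that were higher in no IL-2 4 h, in the no IL-2 4 h, IL-2 4 h and starved 0 h arrays; points are arrays, the open diamond is replicate 2 and lines are means. All 4 no IL-2 4 h arrays lie above all 5 starved arrays for each gene, and replicate 2 is the highest of its group for Dkc1, Slc16a6, Wars and Ifitm3 and the lowest for Rnf207 and Shmt2.

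The IL-2 pathway itself was read from its receptor, kinases, STAT5 and targets. For the receptor alpha chain Il2ra, itself induced by IL-2, the signals were 4061, 19429, 3241 and 4254, against 3337, 3986, 4715, 4587 and 5828 in the starved arrays. Replicate 2 stood above all starved arrays and near the IL-2 4 h mean of 16469, while the other 3 lay inside or just below the starved range. The log2 difference was 0.38 ± 0.28 (adjusted p = 0.438), and -0.21 without replicate 2 (adjusted p = 0.608). Il2rb, the beta chain, differed by 0.18 ± 0.25 (adjusted p = 0.715) and -0.07 without replicate 2.

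Jak1, the kinase on the beta chain, had signals of 7586, 7231, 6276 and 9728, against 14515, 10818, 10063, 11842 and 12362. The groups did not overlap, and Jak1 fell by 0.64 ± 0.14 (adjusted p = 0.004; 0.0172 without replicate 2), although after median centring the adjusted p was 0.399. Jak3, the kinase on the common gamma chain, had signals between 1790 and 2424, against 1456 to 3137 (adjusted p = 0.999). Stat5a had signals of 2436, 1145, 1625 and 1793, against 3710, 3396, 3295, 3194 and 2675, a fall of 0.93 ± 0.19 (adjusted p = 0.00171; 0.0191 without replicate 2). Stat5a averaged 1742 in the IL-2 4 h arrays, against 1750 in the no IL-2 4 h arrays (limma, adjusted p = 0.962). With IL-2, too, Stat5a was lower than in the starved arrays (IL-2 4 h minus starved 0 h -0.91, limma, adjusted p = 0.000676). Its paralogue Stat5b differed by -0.27 ± 0.19 (adjusted p = 0.421), and by 0.03 after median centring.

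Among the targets, 6 of 29 measured members of the IL-2 and STAT5 list rose and 1, Ctla4, was lower, with a median of 0.39. Without replicate 2, 4 rose, the median was 0.21 and Ctla4 was no longer called (adjusted p = 0.132); at an unadjusted p under 0.05 limma then put 6 higher and 4 lower. Lta, the cytokine lymphotoxin alpha, had signals of 1553, 14310, 968 and 1940, against 387, 313, 343, 391 and 377. All 4 arrays lay above the starved range, and Lta rose by 2.77 ± 0.50 (adjusted p = 0.000485; 1.94 ± 0.43 and 0.00727 without replicate 2).

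Myc had signals of 884.5, 9089, 419 and 1160, against 325, 324, 207, 118 and 119 in the starved arrays. The groups did not overlap, and Myc rose by 2.73 ± 0.52 (adjusted p = 0.000884), with 1.84 ± 0.44 and an adjusted p of 0.0121 without replicate 2. Its mean in the IL-2 4 h arrays was 4904, above replicates 1, 3 and 4 and below replicate 2. Socs1, a feedback inhibitor of JAK kinases, had signals of 402, 5350, 237 and 578.5, against 92.2, 188, 155, 223.5 and 95.8, a rise of 2.26 ± 0.49 (adjusted p = 0.00349; 0.0406 without replicate 2 and 0.13 with scan day as a random block).

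Pim1, a survival kinase induced through STAT5, had signals of 2284, 8131, 1840 and 2346, against 1167, 1296, 1201, 1383 and 736, a rise of 1.39 ± 0.29 (adjusted p = 0.00212; 0.027 without replicate 2 and 0.06 with that block). All 4 values lay above the starved range. The IL-2 4 h arrays had 2160, 2264, 1518 and 1657 for Pim1, all below replicate 2. Pim1 was not called in IL-2 4 h minus starved 0 h (0.72, limma, adjusted p = 0.0873). Cish, a STAT5-induced inhibitor, had signals of 1676, 13108, 859 and 2067, against 530 to 1257 in the starved arrays. Replicate 3 lay inside the starved range, and the log2 difference of 1.63 ± 0.41 (adjusted p = 0.0108) was 0.84 ± 0.31 without replicate 2 (adjusted p = 0.12). For the survival gene Bcl2l1 (BCL-XL) the values were 0.86 ± 0.34 (adjusted p = 0.111) and 0.25 without replicate 2.

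The letters TTCNNNGAA, the STAT site, searched on both strands, were in 7 of 21 promoters of this list (33.3%), against 2582 of 27025 genes (9.55%).

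**Figure D4:**
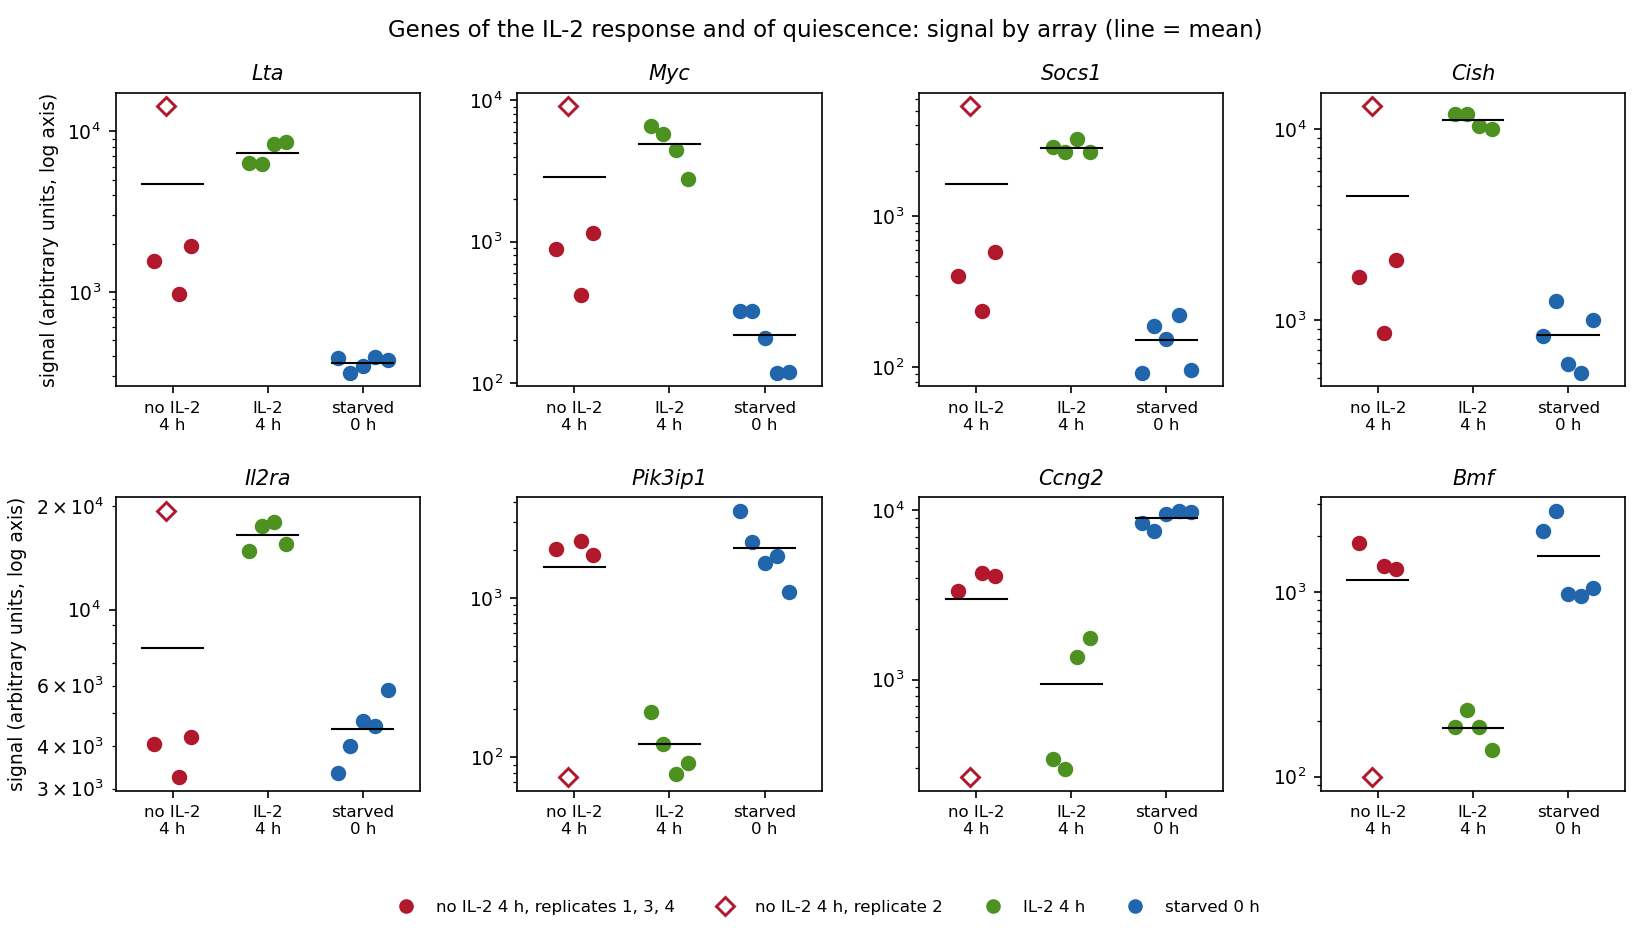
Signal of each array (vertical axes, arbitrary units, log scale) for 5 genes of the IL-2 response and 3 of quiescence or cell death, in the no IL-2 4 h, IL-2 4 h and starved 0 h arrays; points are arrays, the open diamond is replicate 2 and lines are means. Replicate 2 lies with the IL-2 4 h arrays for Il2ra (19429) and Pik3ip1 (75), where the other 3 arrays lie near the starved ones.

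Of 37 measured ribosome biogenesis genes, which MYC drives, 12 rose and none fell, with a median of 0.83; limma put 25 higher and none lower at an unadjusted p under 0.05. Without replicate 2, 3 rose, the median was 0.37, and 11 were higher and 1 lower at an unadjusted p under 0.05. Those 3 were Dkc1, Nop58 and Nhp2. Dkc1, the pseudouridine synthase dyskerin, had signals of 1805, 7057, 1229 and 1997, against 549, 568, 481, 344 and 442. It rose by 2.30 ± 0.31 (adjusted p = 9.92e-06; 1.77 ± 0.26 without replicate 2), and no array overlapped the starved range.

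Nop58, a core protein of box C/D small nucleolar particles, had signals of 819.5, 3589, 725 and 821, against 324, 406, 371, 420 and 360, a rise of 1.58 ± 0.28 (adjusted p = 0.000456; 0.00387 without replicate 2). Rrs1, a ribosome assembly factor, had 1638, 9021, 1606 and 2139, against 1346, 1213, 801, 765 and 750.5. Its rise of 1.48 ± 0.35 (adjusted p = 0.00707) was 0.90 ± 0.31 without replicate 2 (adjusted p = 0.0867). Srm, which makes spermidine, rose by 2.09 ± 0.36 (adjusted p = 0.000257; 0.0034 without replicate 2). The E-box CACGTG was in 7 of 32 promoters of the ribosome biogenesis list (21.9%), against 2187 of 27025 genes (8.09%), and in 5 of 22 of the FoxO list (22.7%).

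The nucleotide and one-carbon synthesis list had 6 of 21 higher and a median of 0.66 with all arrays, and 1 higher, Shmt2, with a median of 0.31 without replicate 2. None was called lower, and limma put 12 higher and none lower at an unadjusted p under 0.05. Mthfd1, a folate enzyme, had signals of 594, 2725, 612 and 884, against 355, 218, 373, 304 and 251. All 4 lay above the starved range, with a log2 difference of 1.67 ± 0.42 (adjusted p = 0.0116; 0.105 without replicate 2).

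Of 21 measured FoxO targets and quiescence genes, 6 fell (Bnip3, Fbxo32, Foxo3, Slfn2, Mxi1 and Foxo1) and 1, Lef1, rose, with a median of -0.75; without replicate 2, 4 fell, 1 rose and the median was -0.11. Replicate 2 was the lowest of its group for Fbxo32, Foxo3 and Slfn2 and the highest for Bnip3 and Mxi1. Foxo3, a FoxO factor, had signals of 806, 197, 706 and 476, against 1408, 1170, 1206, 1558 and 1472, and fell by 1.46 ± 0.25 (adjusted p = 0.000257; 0.00331 without replicate 2). No array overlapped the starved range. Foxo3 was also lower with IL-2, with a mean of 435 (IL-2 4 h minus starved 0 h -1.61, limma, adjusted p = 1.75e-05). Foxo1 fell by 0.80 ± 0.22 (adjusted p = 0.0175), a call lost without replicate 4 and after median centring (adjusted p = 0.175). Pik3ip1, an inhibitor of phosphoinositide 3-kinase, had signals of 2031, 75, 2281 and 1869, against 3542, 2250, 1652, 1850 and 1094 in the starved arrays and a mean of 121 in the IL-2 4 h arrays. Replicates 1, 3 and 4 lay inside the starved range, and the log2 difference was -1.04 ± 0.65 (adjusted p = 0.341) and 0.09 without replicate 2. Ccng2, a cyclin of quiescent cells, had 3342, 265.5, 4238 and 4095, against 8468, 7565, 9545, 9948 and 9804. No array overlapped, and the adjusted p was 0.0877 (0.431 without replicate 2). The FoxO site GTAAACA was in 4 of 22 promoters of this list (18.2%), against 1095 of 27025 genes (4.05%), and in 3 of 21 of the IL-2 and STAT5 list (14.3%).

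The cell death genes gave few calls. Of 18 pro-apoptotic genes 2 rose, Bak1 and Casp8, and neither was called without replicate 2 (adjusted p = 0.0527 and 0.152); limma put 1 lower at an unadjusted p under 0.05, and the median of -0.18 was 0.11 after median centring. Bcl2l11 (BIM), the BH3-only protein best known from cytokine withdrawal, had signals of 3478, 530, 2828 and 4248, against 7729, 4148, 5943, 8550 and 3395. The groups overlapped, and the log2 difference was -1.36 ± 0.47 (adjusted p = 0.0677), or -0.69 ± 0.44 without replicate 2 (adjusted p = 0.421). Bmf, another BH3-only gene, had 1838, 99.4, 1379 and 1334, against 2125, 2752, 980, 952 and 1051. Its 3 other arrays lay inside the starved range (adjusted p = 0.334). Mcl1, an anti-apoptotic relative, differed by -0.11 ± 0.23 (adjusted p = 0.826), and by 0.19 after median centring. On the anti-apoptotic list 1 of 15 genes, Pim1, rose, none was lower, and limma put 5 higher and none lower at an unadjusted p under 0.05, against 9.34% and 12.7% of all genes. Without replicate 2, Pim1 was called higher and Ier3, a stress-induced gene, lower.

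Few cell cycle genes were called. Among 42 genes of G1/S and DNA replication, Mcm3, a subunit of the replicative helicase, was higher (1.24 ± 0.38, adjusted p = 0.0377; 0.182 without replicate 2). Among 40 of G2/M and mitosis, Ttk, a spindle checkpoint kinase, was lower (-1.11 ± 0.30, adjusted p = 0.0159; 0.0614 without replicate 2). At an unadjusted p under 0.05 limma put 11 higher and 1 lower in the first list and 1 lower in the second, against 9.34% higher and 12.7% lower over all genes. Without replicate 2 the first list had 2 higher and 3 lower. Mean log2 signals of the second list were 8.02, 8.55, 10.08, 9.95 and 8.71 in the starved arrays. The no IL-2 4 h arrays lay at 8.51 to 9.38, inside that range, so few calls do not show an absence of change. Oxidative phosphorylation had 4 of 34 genes higher with a median of 0.26, and none higher or lower without replicate 2, when 10 were higher at an unadjusted p under 0.05, against 7.36% of all genes. The proteasome had 2 of 31 higher, chaperones 1 of 19, p53 targets 1 higher and 1 lower of 17, immediate early genes 3 higher of 25 and cytotoxic effectors and cytokines 3 higher of 26. Over all genes 3.24% were called higher and 4.29% lower, and without replicate 2 1.52% and 2.24%. Of these 5 lists, only the last had a gene called higher without replicate 2, Lta, and at an unadjusted p under 0.05 limma then put 4, 0, 0, 3 and 4 genes higher and 1, 0, 4, 4 and 2 lower. The immediate early list then had 1 gene called lower, Ier3. Among 7 histone genes H3f3b was lower (-1.13 ± 0.31, adjusted p = 0.0205), a call lost without replicate 2 (0.138), after median centring (0.077) and with scan day as a random block (0.115). Limma called none of 19 cholesterol synthesis genes, with 1 higher and 1 lower at an unadjusted p under 0.05, and none of 27 autophagy and lysosome genes, with 4 higher and 3 lower.

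**Figure D5:**
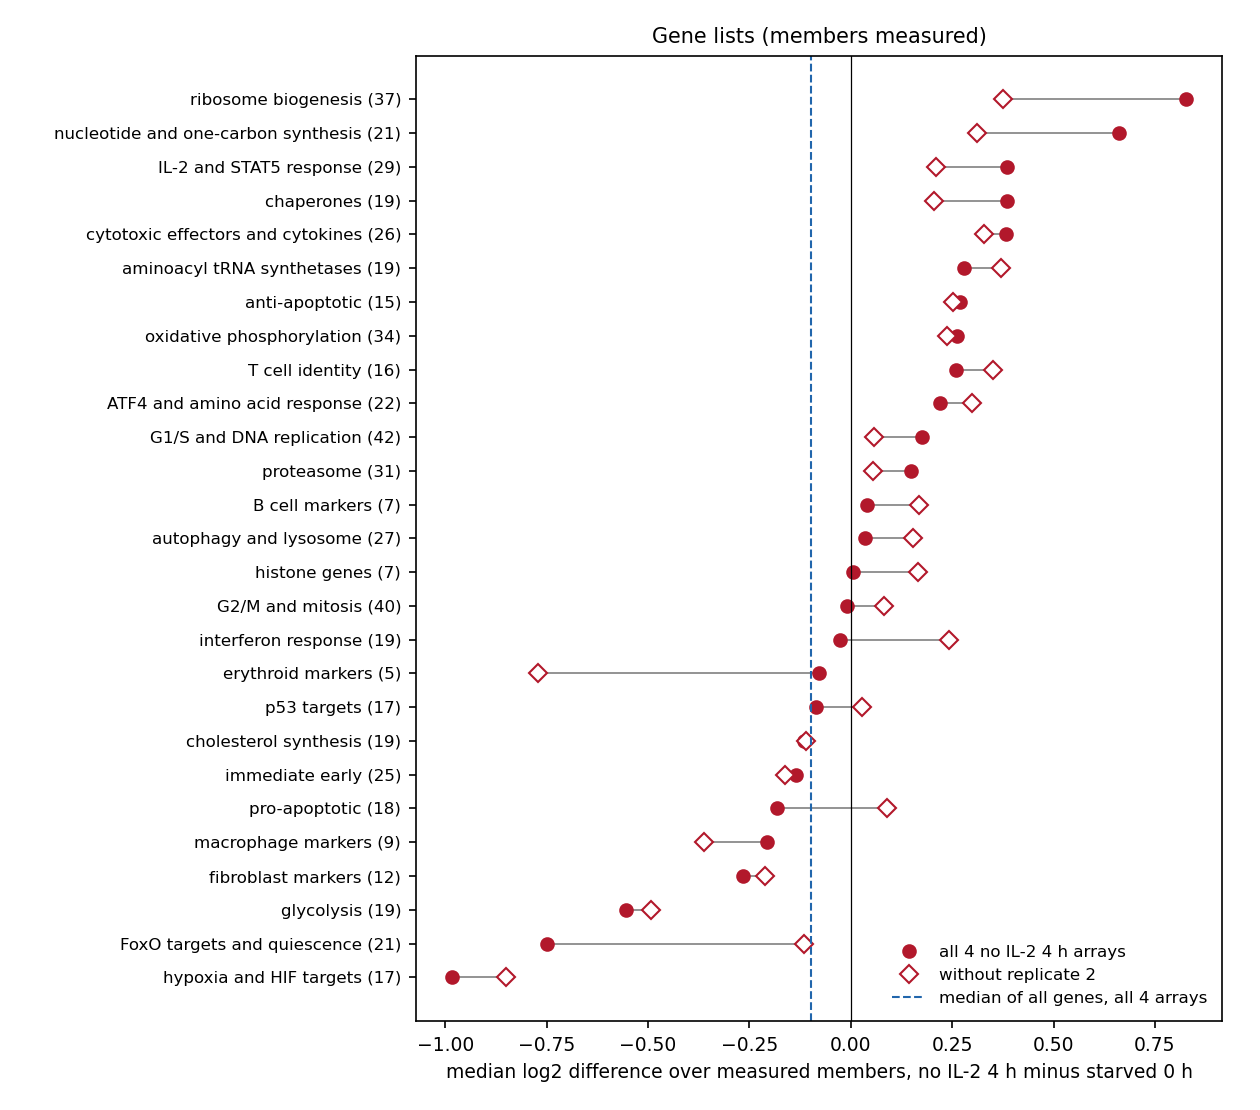
Median log2 difference, no IL-2 4 h minus starved 0 h (horizontal axis), over the measured members of 27 gene lists, with the number measured in brackets; filled circles use all 4 no IL-2 4 h arrays, open diamonds leave out replicate 2, and the dashed line is the median of all genes at -0.10. Hypoxia and HIF targets (-0.98 and -0.85) and glycolysis (-0.55 and -0.49) are low either way, while FoxO targets move to -0.11 and ribosome biogenesis to 0.37 when replicate 2 is left out. The hypoxia and glycolysis lists share members. In IL-2 4 h minus starved 0 h, which is not drawn, their medians were -0.36 and -0.49.

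The arrays carried the markers of a T cell line. Of 16 measured T cell identity genes, 14 were above the array median on all 9 arrays compared, and their summed signal ran between 140601 and 188154 in no IL-2 4 h arrays and between 104731 and 138539 in starved arrays. Above the array median on all 9 arrays were also 3 of 9 macrophage, 2 of 12 fibroblast and 2 of 5 erythroid markers, and 0 of 7 B cell markers. Thy1, a surface protein of mouse T cells, rose by 0.72 ± 0.16 (adjusted p = 0.00381; 0.0273 without replicate 2). Cd247, a chain of the T cell receptor complex, was called higher with all 4 arrays and not without replicate 2. Cd28, a co-stimulatory receptor, was lower by 2.07 ± 0.61 (adjusted p = 0.0297; lost without replicate 2, without starved replicate 2 or 5, and under both other scalings). B cell markers summed to between 394 and 480 signal units, against 305 to 692, and macrophage markers to between 2032 and 2508, against 1271 to 2436. In neither of these lists was a gene called, also at an unadjusted p under 0.05. On the fibroblast list Col6a1, a collagen VI chain, fell by 2.05 ± 0.24 (adjusted p = 1.25e-06; 1.17e-05 without replicate 2) and Thy1 rose. On the erythroid list Gata1, a transcription factor, rose by 1.35 ± 0.27 (adjusted p = 0.00165; 0.0211 without replicate 2 and 0.0509 with the scan day block), and Hba-a1, a globin chain, had signals of 63.6, 5.1, 16.3 and 12.8, against 54.1 to 111 (adjusted p = 0.0378; 0.156 without replicate 2). The part of other cells in the results was not tested, and in bulk RNA fewer cells of a kind and less RNA per cell cannot be told apart.

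The comparison of no IL-2 8 h with no IL-2 4 h shares neither the starved controls nor the difference in scan year. No IL-2 4 h replicate 3 was scanned alone on a different day from all the other arrays without IL-2. Limma called 1 of 32184 probe sets (0.00311%), while 984 were higher and 686 lower at an unadjusted p under 0.05 (1670 in all, and 933 without replicate 2). The median standard error of this contrast was 0.42 on the log2 scale, against 0.37 for no IL-2 4 h against starved 0 h. The gene was Cdc7, a kinase that starts DNA replication, named after its values had been seen. Its signals were 7.6, 20.5 and 18.1 in the 8 h arrays, 87.9, 281, 126 and 81.4 in the no IL-2 4 h arrays, and between 104 and 217 in the starved arrays. The 8 h arrays lay below all others, with a log2 difference of 8 h minus 4 h of -2.22 ± 0.34 (adjusted p = 0.00297), and leaving out 8 h replicate 1 left 0 probe sets called.

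Set against the same starved arrays, the 8 h arrays differed at 1757 probe sets (5.46%), with 728 higher (2.26%) and 1029 lower (3.2%). The actin 3' to 5' ratio was 1.53, 1.41 and 1.41 in the 8 h arrays, above every no IL-2 4 h array (1.18 to 1.34) and every starved array (1.07 to 1.36), and its part in these calls was not tested. Slc2a1 averaged 833.5 in the no IL-2 8 h arrays, Bnip3 2674, P4ha1 506 and Csn2 1893. Of the rises, Shmt2 averaged 10704 at 8 h, Phgdh 14846, Slc7a5 11965 and Rnf207 819. Myc averaged 312 at 8 h, Lta 829.4, Socs1 136 and Cish 970. In no IL-2 4 h replicates 1, 3 and 4 these genes averaged 821, 1487, 406 and 1534, in that order. Limma called none of them between 8 h and 4 h (adjusted p = 0.565, 0.893, 0.344 and 0.893). Lta was the one of these 4 whose 8 h mean exceeded every starved array. Among the 12 genes with the largest 8 h minus 4 h differences of the 464 called at both times, Dkc1 had -0.79, Slc16a6 -0.68, Nfkbid, a regulator of NF-kappa-B, 0.75 and Osgin1 0.62, none of them called.

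At 4 h, cells with and without IL-2 differed at 4664 of 32184 probe sets (14.5%), with 2344 higher (7.28%) and 2320 lower (7.21%) with IL-2. Without replicate 2 there were 5887 (18.3%), with 2873 higher (8.93%) and 3014 lower (9.36%), and without replicate 3 or 4 of no IL-2 4 h 2997 and 2711. On the ribosome biogenesis list 21 of 37 were higher with IL-2 with all arrays and 28 without replicate 2, and on the hypoxia list 5 of 17 and 6 of 17. Slc2a1 averaged 6494 in the IL-2 4 h arrays, Bnip3 9209, P4ha1 1970 and Mxi1 7195, and Csn2 averaged 16741. The single IL-2 4 h arrays were far apart for Slc2a1 (2985, 3235, 7428 and 12328) and for Bnip3 (5528, 7224.5, 10520 and 13563). These 2 groups were scanned in different scan years.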

How the data were processed

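The authors deposited signal intensities on a linear scale for 45101 probe sets on 43 arrays, computed in GCOS 1.3 per the submitters' processing notes. The 2% trimmed mean was 500.003 to 500.004 on every array, so the deposited values had been scaled alike. The authors' other deposited tables were not used here. Per the labels' protocols the target was biotin-labelled cRNA.

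Signals were changed to log2(signal + 16), and 32184 probe sets above their array's median on at least 3 arrays were tested. Limma 3.58.1 in R 4.3.3 fitted 1 mean per group to all 43 arrays (30 residual degrees of freedom) with a variance trend, two-sided, with Benjamini-Hochberg adjustment over all tested probe sets. A call is an adjusted p under 0.05. The script was tested on simulated data. A gene was read from its probe set with the highest mean (14534 genes); 34958 probe sets carried 1 gene name, 932 several and 9211 none. The number of arrays limits the precision.

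The arrays, gene lists and comparisons were chosen with earlier results of these data known. The genes named were the 12 largest rises and falls called with and without replicate 2, without overlap and with a mean of at least 200; a fixed panel; up to 4 called members per list; 8 genes each way where replicate 2 lay farthest out; and 6 each way for 8 h against 4 h. Chosen after their values were seen were Ankrd37, Cdc7, Ddit3, Egln1, Hk2, Ier3, Ldha, Lef1, Mxi1, Nhp2 and Slc2a3. The alternatives were other pseudocounts, scalings, filters, blocks, array weights and arrays left out.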

Additional observations from a re-analysis of the deposited data

Results flagged for a closer look

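In groups of 4 or 5 arrays, an array was singled out where its gap to the nearest other array took up nearly all of the group's range, which chance gives in about 1 in 20 groups. Replicate 2 of no IL-2 4 h stood apart in this way for 24 of the 125 named genes and in its position between starved and IL-2 4 h arrays (0.914). It was above the rest for Slc16a6 (6175.1), Srm (7230.9), Il2ra (19429.4), Pim1 (8130.9), Ccne1 (1374.2), Nop58 (3588.5), Rrs1 (9021), Hspd1 (14950.2) and Aen (3289.5). It was below the rest for Rnf207 (372.4), Raph1 (32.3), Stat5b (1885.2), Bmf (99.4), Pik3ip1 (75), Bcl6 (58.8), Ctla4 (226.4) and Slfn2 (174.4). The same held for Ccng2 (265.5), Rgs2 (94.7), Mxd4 (223.5), Jakmip1 (351.3), Klhl24 (135), Brdt (55.3) and Osgin1 (811.1). Many of these genes were named because replicate 2 lay far out, so their number is no independent evidence.

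Replicate 3 of no IL-2 4 h was low for Epha2 (10.1). Among the starved arrays, replicate 4 stood apart for Socs2 (3147.9), Psmc4 (856) and Uqcrfs1 (9364.3), replicate 5 for Pim1 (736), replicate 2 for Ccne1 (453.7) and its median signal (112.2), and replicate 1 for Bak1 (1460.6). Cdc7 differed between no IL-2 8 h and no IL-2 4 h by -2.22 on the log2 scale in limma's test of that difference (adjusted p = 0.00297).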

How the results depend on the processing

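Against 2579 calls for no IL-2 4 h and starved 0 h, limma called 1287 probe sets with only the compared arrays fitted, 469 with scan day as a random block, 4031 with array weights, 822 at an adjusted p under 0.01, 1409 at a change of at least 2-fold, and between 1325 and 2569 when 1 array was left out. Alternatives chosen after seeing the data gave 568 without replicates 2 and 3 of no IL-2 4 h, and, without replicate 2, 1008 with only the compared arrays, 1066 with median centring, 902 with quantile normalisation and 353 with the scan day block. Deviations from the group means correlated at 0.086, -0.003, 0.013 and 0.055 for same-numbered arrays of the 2 groups. For arrays of unlike number the correlations ran between -0.177 and 0.066. Replicate 2 weighs on the mean of its group, so these values do not decide whether the numbers pair the arrays. With the replicate block 356 were called. For no IL-2 8 h against no IL-2 4 h, 1 call became 2 with a pseudocount of 1, 0 with 64, 2 with quantile normalisation, 0 with only the compared arrays, 0 with the replicate block, 2 with the scan day block, 32 with array weights, 0 without replicates 2 and 3, and 0 to 2 with 1 array left out. For IL-2 4 h against no IL-2 4 h, 4664 calls became 2031 with the scan day block, 9316 with array weights, 2318 at 0.01, 2516 at 2-fold and between 2711 and 5887 with 1 array left out. The cause of these moves was not tested. Of 87 named genes called, 51 were called without replicate 2 and 32 with the scan day block, and none changed direction under the alternatives run. Scan year cannot be told apart from the additional hours without IL-2, and folds of dim genes are not exact.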
